A study of Mus musculus with 25 samples.

Results

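Ileal loops in which intestinal content stands were compared with loops that drain, both in mice labelled as IL10 knockouts. The comparison holds 6 of the 25 arrays of the study, chosen by their sample titles: 3 IL10 knockout self-filling loops and 3 IL10 knockout self-emptying loops. Gene expression had been read from total RNA with Illumina bead arrays, whose probes each sit on many beads. All animals were C57Bl/6 females aged 6 to 8 weeks that ate a gel diet for 5 days before the operation. In the loop operation 2.5 cm of ileum was resected 3 cm from the ileocecal valve with an anastomosis to the ileum, the colon stayed in place, and tissue was taken 5 weeks later. Wild type mice gave 3 self-filling loops, 4 self-emptying loops, 3 sham ileum and 3 sham cecum samples, and TLR4 knockout mice gave 3 loops of each kind. The 2 loop types share the stated resection, genotype and diet, so that the comparison sets loops labelled self-filling against loops labelled self-emptying. The content of the loops was not measured here. The labels give neither the knockout allele nor the tissue layers in a sample, and whether replicates are separate animals is not stated. P-values therefore measure spread among these samples alone, and that spread may be technical.

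Interleukin 10 is a cytokine made by T cells and macrophages that signals through its receptor and STAT3 and restrains the response of myeloid cells to bacteria. Mice without it are known to develop intestinal inflammation that depends on the gut microbiota. Standing content exposes a segment of ileum to more bacteria, as in the ileal pouch built after removal of the colon. The epithelium there answers bacteria with Paneth cell peptides, siderophore-binding proteins and chemokines.

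Between 12291 and 13113 of the 25697 probes were detected on the 6 arrays, with medians of 34 to 39 beads. Precision is limited by how few arrays there are. Self-filling array 1 and self-emptying array 1, numbered as in the titles, correlated least with the others of their group and correlated at r = 0.933 with each other. The median SD of a probe was 0.21 log2 units in the self-filling and 0.206 in the self-emptying group, against 0.146 to 0.204 in the other 6 groups. The Il10 probe was read as a check of the label. It was detected on all 6 arrays, at normalized log2 intensities of 7.45, 7.24 and 7.34 in self-filling loops and 7.72, 5.72 and 6.51 in self-emptying loops. The other 19 arrays all lacked detection. Signal is thus higher on the arrays labelled knockout, and where the probe lies relative to the deletion is not known here, so it checks nothing about the deletion and the direction of every result rests on the label. The loops did not differ in Il10 (0.69 ± 0.27, adjusted p = 0.149), whose groups overlap, although the difference passed at 1.23 without self-emptying array 1. Tlr4, the lipopolysaccharide receptor, differed by 0.26 ± 0.20 (adjusted p = 0.508).

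The largest rises in self-filling loops were Lcn2, Chil3 and Cxcl13, and the largest falls were Gsdmc2, Pnliprp2 and Ang4. Of 11227 genes tested, 216 rose (1.92%) and 254 fell (2.26%), together 4.19%, at an adjusted p under 0.05, and "rose" and "fell" are used below of such genes only. Changes are log2 differences of self-filling minus self-emptying loops ± SE, where 1 unit is a 2-fold difference. The median change over all genes was -0.02. At least 1 log2 unit separated the loops in 187 of the 470 genes. In 456 of the 470 the 3 arrays of each loop type did not overlap, where 9.53% of all genes lay higher and 11.8% lay lower without overlap. All 25 arrays shared 1 estimate of spread in this fit. Ifng, Il1r2 and Chil1 varied more within both IL10 knockout groups than within any other group. Their SE below is therefore smaller than the 6 arrays alone give. With these alone their adjusted p was 0.0922, 0.197 and 0.129. When only the 6 arrays were fitted, 6 probes passed in place of 649 (4.24% of probes): 2 of Rgs1 and 1 each of Srd5a2, Gpnmb, Taf15 and Arg2. Rgs1 and Gpnmb are named because they were in that count, after their values were seen. Without self-filling array 1 the count of probes was 140, without self-emptying array 1 it was 303, without self-emptying array 2 it was 330, and without self-filling array 3 it was 1017. Arrays whose omission ended a named gene's call are given as filling 1 to 3 and emptying 1 to 3.

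**Figure D1:**
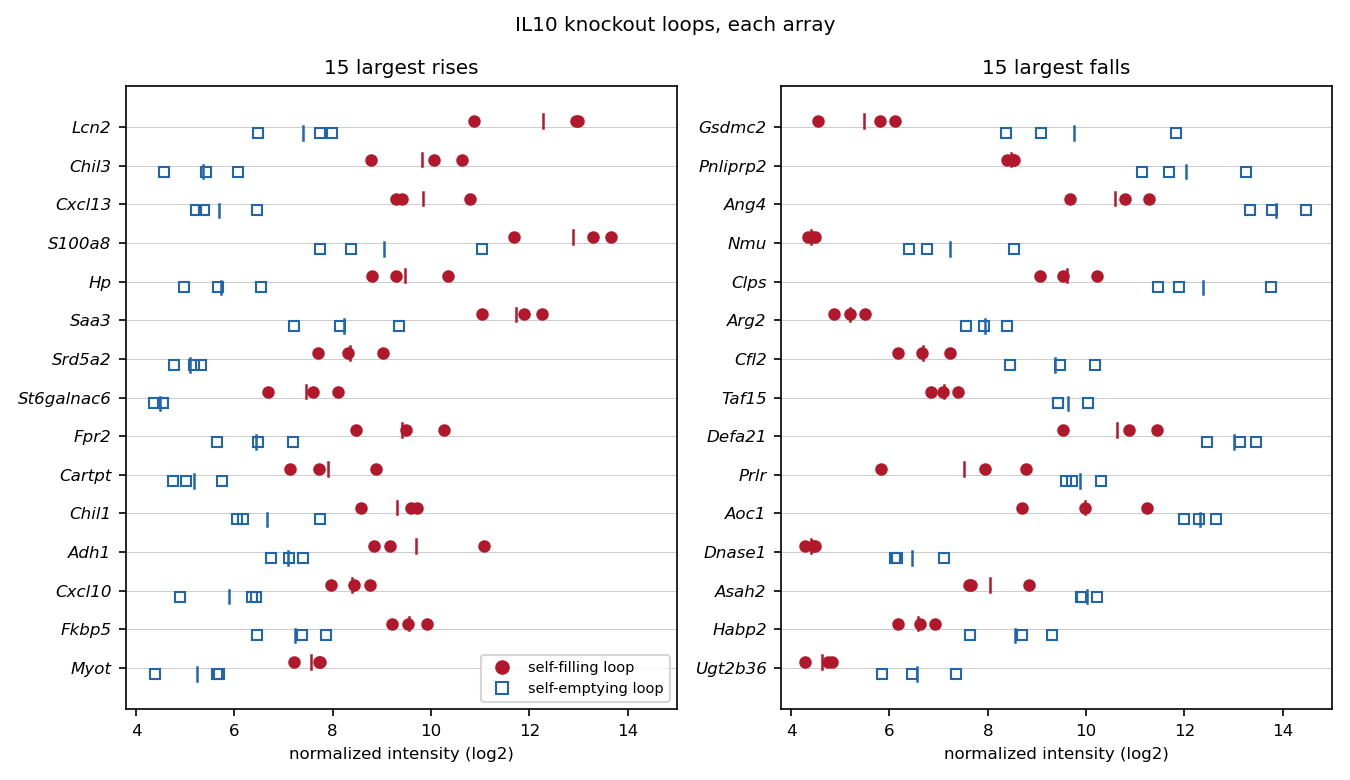
Normalized log2 intensity of the 15 largest rises and the 15 largest falls on each of the 6 IL10 knockout arrays, with filled circles for self-filling loops, open squares for self-emptying loops and vertical bars for group means. The groups do not overlap for any gene shown, which the choice of genes required, and Lcn2 spans from 6.48 to 12.99.

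The largest rise was Lcn2, lipocalin 2, which binds the siderophores that bacteria use to take up iron. It lay at 12.99, 12.96 and 10.87 in self-filling and at 7.98, 6.48 and 7.75 in self-emptying loops. The change was 4.87 ± 0.54 (adjusted p = 2.22e-05). The lowest self-filling array exceeded the highest self-emptying array, as the choice of the largest rises required. Chil3, a chitinase-like protein of myeloid cells, lay at 10.63, 10.05 and 8.78 against 4.57, 5.42 and 6.08. It rose by 4.47 ± 0.56 (adjusted p = 9.05e-05), and its relative Chil1 by 2.64 ± 0.34 (adjusted p = 0.000117). The B cell chemoattractant Cxcl13 lay at 10.79, 9.41 and 9.30 against 5.23, 5.39 and 6.46, with a wide error on its rise (4.14 ± 1.03, adjusted p = 0.0264). This call was lost without filling 1 (adjusted p = 0.161), emptying 1 (adjusted p = 0.0957) or emptying 2 (adjusted p = 0.0713), and the adjusted p over all alternatives ran from 0.0169 to 0.317.

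Among the falls, Gsdmc2, a member of the pore-forming gasdermin C family, changed most. Its values were 6.12, 4.54 and 5.80 in self-filling and 11.82, 8.36 and 9.07 in self-emptying loops, a change of -4.26 ± 0.99 (adjusted p = 0.0181). The call was lost without filling 1 (adjusted p = 0.0559), filling 2 (adjusted p = 0.0567) or emptying 1 (adjusted p = 0.109). Gsdmc3, a close relative whose transcripts a probe may share, lay at 4.35, 4.42 and 4.40 against 10.97, 6.24 and 6.52 and did not pass (adjusted p = 0.0744). In both genes self-emptying array 1 was by far the highest. Pnliprp2, a pancreatic lipase relative kept on the Paneth cell list, lay at 8.52, 8.52 and 8.39 against 13.25, 11.69 and 11.14 (-3.55 ± 0.49, adjusted p = 0.000287). Ang4, an antimicrobial ribonuclease of Paneth cells, lay at 10.80, 9.67 and 11.29 against 14.47, 13.78 and 13.33 (-3.28 ± 0.64, adjusted p = 0.00578). Both groups of values stood clear of each other in these genes, as their place among the largest falls required. Nmu, the neuropeptide neuromedin U, was not detected on any self-filling array and was at least 5.37-fold lower there (adjusted p = 0.0175), a call lost without filling 1 (adjusted p = 0.0871) or emptying 1 (adjusted p = 0.103).

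The promoters of the 3 largest rises and the 3 largest falls with an entry in RefSeq (GRCm38.p6) are shown because these genes carry the comparison. Each runs from 250 bases before to 50 bases after the start of the gene, 5′ to 3′ on the gene's strand, and Gsdmc2 was not listed. Capitals mark matches on either strand to GAS (TTCNNNGAA, the STAT site), ISRE (GAAANNGAA), kappaB (GGGANTTTC), HNF4 (CAAAGTCCA), CDX (TTTATGG) or AP-1 (TGANTCA).
Lcn2 promoter, chr2:32387690-32387989, minus strand: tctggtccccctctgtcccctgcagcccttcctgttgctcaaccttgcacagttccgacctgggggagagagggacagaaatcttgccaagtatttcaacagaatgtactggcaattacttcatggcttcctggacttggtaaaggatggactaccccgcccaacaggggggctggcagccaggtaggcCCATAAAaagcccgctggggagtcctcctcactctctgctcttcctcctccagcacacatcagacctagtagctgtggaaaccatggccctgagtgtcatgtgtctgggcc
Chil3 promoter, chr3:106167515-106167814, minus strand: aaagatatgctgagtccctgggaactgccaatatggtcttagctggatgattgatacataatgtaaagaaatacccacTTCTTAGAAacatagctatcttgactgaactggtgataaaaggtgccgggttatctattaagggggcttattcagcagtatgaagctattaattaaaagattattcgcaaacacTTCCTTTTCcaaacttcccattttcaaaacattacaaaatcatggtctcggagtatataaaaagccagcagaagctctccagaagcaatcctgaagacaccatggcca
Cxcl13 promoter, chr5:95956689-95956988, plus strand: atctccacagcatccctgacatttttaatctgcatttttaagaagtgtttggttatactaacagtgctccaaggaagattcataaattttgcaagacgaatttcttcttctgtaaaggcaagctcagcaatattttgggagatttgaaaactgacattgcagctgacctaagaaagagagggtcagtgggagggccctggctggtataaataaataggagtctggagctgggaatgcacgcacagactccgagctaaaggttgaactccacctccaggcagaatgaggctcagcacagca
Pnliprp2 promoter, chr19:58759473-58759772, plus strand: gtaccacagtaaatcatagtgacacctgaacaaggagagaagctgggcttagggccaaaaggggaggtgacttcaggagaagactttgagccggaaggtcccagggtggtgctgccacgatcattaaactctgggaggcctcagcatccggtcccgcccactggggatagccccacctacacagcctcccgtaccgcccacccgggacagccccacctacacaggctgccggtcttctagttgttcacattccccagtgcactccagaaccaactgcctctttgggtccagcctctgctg
Ang4 promoter, chr14:51773541-51773840, minus strand: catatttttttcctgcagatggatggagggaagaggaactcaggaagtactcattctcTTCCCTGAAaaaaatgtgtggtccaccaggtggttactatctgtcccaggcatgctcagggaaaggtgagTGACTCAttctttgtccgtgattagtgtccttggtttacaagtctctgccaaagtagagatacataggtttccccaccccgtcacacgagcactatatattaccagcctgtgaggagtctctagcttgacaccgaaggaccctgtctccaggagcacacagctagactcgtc
Nmu promoter, chr5:76363728-76364027, minus strand: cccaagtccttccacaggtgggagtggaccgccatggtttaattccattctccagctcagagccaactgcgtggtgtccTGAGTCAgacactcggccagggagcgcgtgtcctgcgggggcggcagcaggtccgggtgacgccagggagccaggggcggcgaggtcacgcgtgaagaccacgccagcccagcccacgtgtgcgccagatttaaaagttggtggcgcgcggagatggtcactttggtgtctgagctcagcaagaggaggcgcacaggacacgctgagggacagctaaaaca
The Lcn2 window holds 1 match to CDX, that of Chil3 holds 1 to GAS and 1 to ISRE, that of Ang4 holds 1 to GAS and 1 to AP-1, and that of Nmu holds 1 to AP-1. Of 27025 promoters of the same length, 8.5% hold GAS, 8.6% ISRE, 1.1% kappaB, 0.5% HNF4, 2.8% CDX and 7.9% AP-1. A promoter was listed for 13 of the 15 largest rises, of which 2 hold GAS, 3 ISRE, 2 CDX, 1 AP-1, 0 kappaB and 0 HNF4. For the falls it was listed for 12 of 15, of which 2 hold GAS, 1 ISRE, 3 AP-1, 0 CDX, 0 kappaB and 0 HNF4. A match describes letters and not a bound site.

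Genes of mucosal defence include proteins that withhold iron or zinc and enzymes that make oxidants. Of 15 tested antimicrobial and oxidase genes 7 rose and 1 fell, and the median change of the list was 0.68. Over all genes 1.92% rose and 2.26% fell. This list and those below were chosen with earlier results of these data known. S100a8, a subunit of the metal-chelating protein calprotectin, lay at 13.29, 13.65 and 11.70 against 11.05, 8.37 and 7.74 (3.83 ± 0.86, adjusted p = 0.0155). Its partner S100a9 rose by 2.87 ± 0.72 (adjusted p = 0.0287), although self-emptying array 1 (10.06) lay above self-filling array 3 (9.64). Lactoferrin, Ltf, another iron-binding protein, rose by 1.56 ± 0.31 (adjusted p = 0.0062). Of the NADPH oxidases, Nox1 rose by 1.46 ± 0.36 (adjusted p = 0.0261) and Duox2 fell (-0.99 ± 0.27, adjusted p = 0.0412), both being named after their values were seen. Duox2 was detected on 1 self-filling and 2 self-emptying arrays, and its groups overlap. The S100a8 call was lost without filling 1 (adjusted p = 0.0948), emptying 2 or emptying 3, and that of S100a9 without filling 1 (adjusted p = 0.181), filling 2, emptying 2 or emptying 3. Without filling 1, 4 members of this list rose and 0 fell.

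Acute phase proteins, which bind haemoglobin, lipids or bacterial products, rose in 4 of 14 cases, with a list median of 0.22. The share over all genes was 1.92%. Haptoglobin, Hp, lay at 10.34, 9.29 and 8.79 against 6.55, 4.97 and 5.68, and rose by 3.74 ± 0.73 (adjusted p = 0.00591). Saa3, a serum amyloid A made in tissues, lay at 11.89, 12.27 and 11.04 against 9.35, 7.21 and 8.14 (3.50 ± 0.61, adjusted p = 0.00249). The groups were apart in both genes, as their place among the largest rises required, and self-emptying array 1 was the highest of its group. Lrg1, an alpha-2 glycoprotein, rose by 1.89 ± 0.43 and the lipopolysaccharide-binding protein Lbp by 1.36 ± 0.36. Without filling 1, 1 member of the list rose. The Hp call was lost without that array (adjusted p = 0.0559), that of Lrg1 without filling 1, emptying 1 or emptying 2 (highest adjusted p = 0.0688), and that of Lbp without each array but filling 3 and emptying 1 (highest adjusted p = 0.124).

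Of 15 interferon gamma and T cell chemokine genes, 4 rose, where 1.92% of all genes rose, and the list median was 0.66. Ifng itself, which T and NK cells release to activate macrophages, lay at 7.19, 6.31 and 6.79 against 5.45, 4.46 and 4.76. It rose by 1.88 ± 0.19 (adjusted p = 9.44e-06) and was detected on 1 of the 3 self-emptying arrays. The SD of Ifng was 0.44 and 0.51 in these groups and 0.03 to 0.12 in the others, which lower the shared error. With only the 6 arrays fitted it did not pass (adjusted p = 0.0922). The chemokines it induces followed the same order of loops. Cxcl10 lay at 8.76, 7.97 and 8.44 against 6.44, 4.89 and 6.37 (2.49 ± 0.36, adjusted p = 0.000599), and Cxcl9 rose by 1.92 ± 0.45 (adjusted p = 0.0204). Cd274, the checkpoint ligand PD-L1, rose by 1.87 ± 0.33 (adjusted p = 0.00297). Of other genes downstream of interferons, 0 of 20 type I interferon antiviral genes were called (median -0.08). The same count, 0, held for 21 immune GTPase and MHC class I genes and 12 MHC class II genes (medians 0.07 and -0.09). Over all genes 4.19% were called, so that 0 calls in lists of this size do not set them apart from other genes. Without filling 1, 3 genes of the first list rose, and the Cxcl9 call was lost there (adjusted p = 0.112) and without emptying 2 (adjusted p = 0.0951).

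Cytokines and chemokines of myeloid cells rose in 5 of 17 cases, where 1.92% of all genes rose, and their median was 0.57. Cxcl1, which draws neutrophils, lay at 8.75, 7.73 and 7.64 against 6.80, 5.66 and 5.70 (1.99 ± 0.54, adjusted p = 0.0402). The interleukin 1 decoy receptor Il1r2 rose by 1.74 ± 0.27 (adjusted p = 0.000814), Tnf by 1.47 ± 0.33 (adjusted p = 0.0146) and its receptor Tnfrsf1a by 0.83 ± 0.21 (adjusted p = 0.0265). Fpr2, a receptor for formylated bacterial peptides, lay at 10.26, 9.49 and 8.47 against 7.20, 5.66 and 6.49 and rose by 2.96 ± 0.44 (adjusted p = 0.000727). In each of these genes the loop types did not overlap, as in 456 of the 470 called genes. For Fpr2 its place among the largest rises required it. Without filling 1, 1 member of the cytokine list rose. The calls of Cxcl1, Tnf and Tnfrsf1a were lost there, with adjusted p = 0.254, 0.108 and 0.201, and also without emptying 2. That of Cxcl1 was lost as well without filling 2 (adjusted p = 0.0532) or emptying 3 (adjusted p = 0.100), and that of Tnfrsf1a without emptying 1 (adjusted p = 0.112).

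The next list held the TLR4 receptor complex, other Toll-like and NOD receptors and adaptors. Its median was 0.08, and 4 of its 23 members rose, where 1.92% of all genes did. Beside Lbp these were the coreceptor Cd14 (0.91 ± 0.24), Tlr7 (0.82 ± 0.21) and Tlr2 (0.69 ± 0.19), with adjusted p = 0.0321, 0.0317 and 0.0405, and 0 rose without self-filling array 1 or without self-emptying array 2. The groups overlap in Cd14. Each of the calls of Cd14, Tlr7 and Tlr2 was lost without any 1 of at least 3 arrays, with a highest adjusted p = 0.266. Of 15 NF-kB genes the 2 that rose are inhibitors, Nfkbia (1.31 ± 0.26, adjusted p = 0.00715) and Nfkbib (1.09 ± 0.28, adjusted p = 0.0322), and 0 rose without self-filling array 1. The Nfkbib call was also lost without emptying 1 (adjusted p = 0.158). Of 13 IL-10 receptor and STAT3 feedback genes 0 passed, with a median of 0.05, and of 9 IL-17 and IL-22 genes also 0, with a median of -0.03. Over all genes 4.19% passed.

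**Figure D2:**
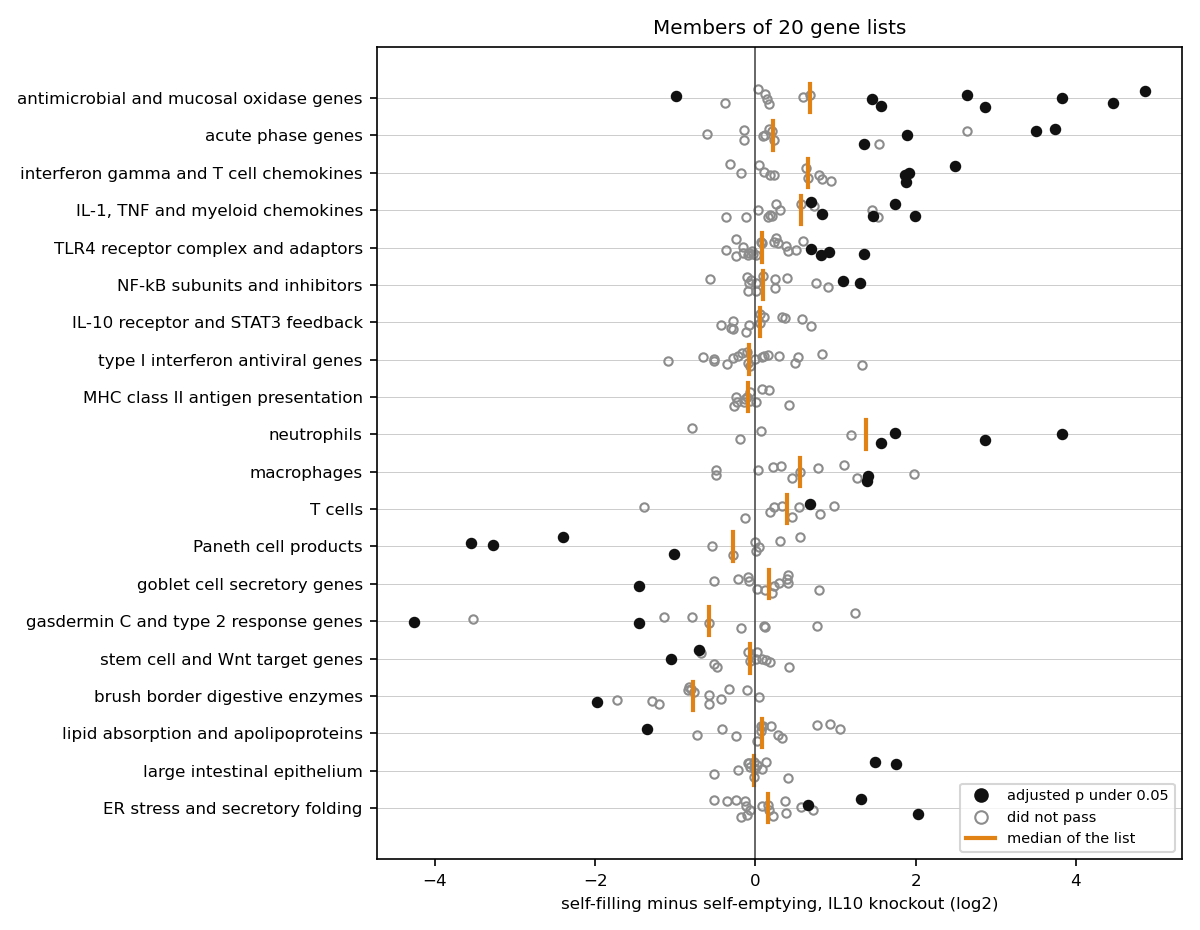
Change in IL10 knockout loops (self-filling minus self-emptying, log2) for each tested member of 20 gene lists, with black points for adjusted p under 0.05, open points for members that did not pass and an orange bar for the list median. The antimicrobial list has 7 black points to the right and the Paneth cell list 4 to the left.

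Markers of immune cells were counted next, where 1.92% of all genes rose. Of 14 neutrophil markers 8 were tested and 4 rose, all of them shared with the lists above (S100a8, S100a9, Il1r2 and Ltf), while Csf3r, Elane, Retnlg and Mmp9 did not pass. The markers' normalized intensities on the linear scale, summed per array and thus led by bright probes, ran from 4742 to 16773 in self-filling and from 867 to 3805 in self-emptying loops. Of 13 macrophage markers tested out of 15, 2 rose, Cd68 (1.41 ± 0.39, adjusted p = 0.0453) and the Fc receptor Fcgr3 (1.40 ± 0.40, adjusted p = 0.0492). Their sums ran from 4865 to 5815 and from 1350 to 3301. The groups overlap in Cd68, and both macrophage calls were lost in the authors' log2 values and without filling 1, filling 2, emptying 2 or emptying 3 (highest adjusted p = 0.276 for Cd68). Of 10 T cell markers tested out of 16, the T cell receptor chain Cd247 rose (adjusted p = 0.0456). It was detected on 0 self-emptying arrays and was at least 1.37-fold higher, a call lost without each array but filling 2 (highest adjusted p = 0.203), with sums of 1193 to 1718 and 896 to 1498 for the list. Among 10 B and plasma cell markers tested out of 14 only Cxcl13 rose, which attracts B cells. The list median was 0.02, and 5 of the 10 had a positive change. The sums of the list ran from 1460 to 2353 and from 504 to 1157. They include Cxcl13, at log2 intensities of 10.79, 9.41 and 9.30 in self-filling and 5.23, 5.39 and 6.46 in self-emptying loops. In whole tissue, fewer cells of a type and less RNA per cell cannot be told apart, and the part of these cells in the results was not tested.

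Markers of structural cells were examined likewise. Markers of smooth muscle (13 tested), fibroblasts (12), mast cells (5), enteric neurons and glia (10), adipocytes (10) and epithelium (9) had 0 members that passed. Over all genes 4.19% passed. The epithelial sums ran from 35399 to 38015 in self-filling and from 40977 to 44672 in self-emptying loops and did not overlap. Smooth muscle sums overlapped, from 16903 to 57563 against 29788 to 62810. Of 12 endothelial markers the lymphatic receptor Lyve1 rose (1.01 ± 0.28, adjusted p = 0.0453), a call lost in the authors' log2 values and without each array but emptying 3 (highest adjusted p = 0.218).

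Of 11 Paneth cell genes 4 fell, where 2.26% of all genes fell, and 0 rose, with a median of -0.28. Without self-filling array 1, 4 also fell. With Pnliprp2 and Ang4 these were the alpha-defensin Defa21, at 11.45, 9.53 and 10.88 against 13.13, 13.46 and 12.46 (-2.40 ± 0.44, adjusted p = 0.00401), and the lectin Itln1 (-1.01 ± 0.18, adjusted p = 0.00303). Lysozyme, Lyz1, a defining Paneth cell product, differed by 0.04 ± 0.09 (adjusted p = 0.842), and Defa20 and Mmp7 did not pass either. Alpha-defensin transcripts are near-identical, so that a probe may read several of them. Colipase, Clps, a lipase cofactor on the pancreatic acinar list, lay at 9.52, 9.07 and 10.22 against 13.77, 11.89 and 11.46 (-2.77 ± 0.43, adjusted p = 0.000835), while 8 of the 10 acinar genes were not tested and Cela1 did not pass.

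Of 14 goblet cell genes 1 fell, the secreted protein Clca1 (-1.45 ± 0.34, adjusted p = 0.018), and the list median was 0.17. Over all genes 2.26% fell. Clca1 is also a gene of type 2 immunity, a list in which it and Gsdmc2 were the 2 of 11 that fell. Neither passed without filling 1 or without emptying 1. Of 13 stem cell and Wnt target genes 2 fell, Axin2 (-1.06 ± 0.22, adjusted p = 0.0083) and Sox9 (-0.70 ± 0.18, adjusted p = 0.0336), while Lgr5 and Olfm4 did not pass and 0 passed without self-filling array 1, and of 23 cell cycle genes 0 passed. The calls of Axin2 and Sox9 were also lost without emptying 2, and that of Sox9 without filling 3 or emptying 1. Among hormones, Sst, somatostatin, fell (-1.22 ± 0.30, adjusted p = 0.027) and Tac1, the precursor of substance P, rose (1.45 ± 0.40, adjusted p = 0.0444), although self-filling array 1 (9.37) lay no higher than any self-emptying array (9.37 to 9.45). The Sst call was lost without filling 1 (a difference of -0.74, adjusted p = 0.212), emptying 1 or emptying 3. The Tac1 call was lost in the authors' log2 values (adjusted p = 0.0509) and without each array but filling 1 (highest adjusted p = 0.143). The tuft cell receptor Il17rb was detected on 0 self-filling arrays and was at least 1.52-fold lower (adjusted p = 0.0162), a call lost without filling 1 (adjusted p = 0.0976) or emptying 1 (adjusted p = 0.0899).

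The lists of brush border, lipid absorption and transporter genes each had 1 member that fell, where 2.26% of all genes fell. Of 14 brush border enzymes 1 fell, the ceramidase Asah2, at 7.65, 7.61 and 8.84 against 9.89, 10.23 and 9.91 (-1.98 ± 0.38, adjusted p = 0.00578), while the list median was -0.78 and 1 of the 14 lay above 0. The cholesterol uptake protein Npc1l1 fell by 1.36 on the log2 scale (SE 0.26, adjusted p = 0.00578) as the 1 of 14 lipid absorption genes. The glutamate transporter Slc1a1 (-0.81 ± 0.22, adjusted p = 0.0444) was the 1 of 13 transporters that fell. Nr1h4, the bile acid receptor FXR, rose by 0.61 ± 0.16 (adjusted p = 0.0317), 1 of 6 bile acid genes. The claudin Cldn15 fell (-1.05 ± 0.22, adjusted p = 0.0104), as did Aoc1, the diamine oxidase that degrades histamine, at 8.70, 9.97 and 11.23 against 11.99, 12.64 and 12.30 (-2.35 ± 0.44, adjusted p = 0.00483). Without filling 1 the calls of Asah2 (adjusted p = 0.0509), Npc1l1 (adjusted p = 0.0559), Slc1a1 (adjusted p = 0.241), Nr1h4 (adjusted p = 0.126) and Cldn15 (adjusted p = 0.0783, a difference of -0.68) were lost. The last 3 were also lost without emptying 1, Slc1a1 and Nr1h4 without filling 2, and Slc1a1 without emptying 2. Self-filling array 1 was the lowest for Aoc1, as for the prolactin receptor Prlr (5.84, 7.93 and 8.77 against 9.59, 10.30 and 9.71).

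Srd5a2, a steroid 5-alpha-reductase, lay at 9.02, 8.30 and 7.71 against 4.78, 5.33 and 5.17 (3.25 ± 0.33, adjusted p = 9.44e-06). The neuropeptide precursor Cartpt rose by 2.73 ± 0.47 (adjusted p = 0.00228), the alcohol dehydrogenase Adh1 by 2.61 ± 0.43 (adjusted p = 0.00142) and the glucocorticoid-induced chaperone Fkbp5 by 2.32 ± 0.42 (adjusted p = 0.00308). Sialyltransferase St6galnac6 was detected on 0 self-emptying arrays and was at least 6.25-fold higher where content stood (adjusted p = 2.37e-05), and its other probes rose by 2.10, 1.18 and 0.94. Arg2, mitochondrial arginase, lay at 5.49, 5.19 and 4.88 against 7.55, 8.38 and 7.92 (-2.76 ± 0.34, adjusted p = 9.05e-05). Taf15, an RNA-binding protein, fell (-2.52 ± 0.26, adjusted p = 9.44e-06). The fall of Cfl2, a muscle cofilin, was seen with 1 probe (-2.69 ± 0.46, adjusted p = 0.00196), while its other probe gave -0.37 and did not pass. Repair-associated epithelial genes had 1 of 17 members that rose, the growth factor Areg (2.28 ± 0.45, adjusted p = 0.00578). Of 19 ER stress genes 3 rose, led by Chac1 (2.03 ± 0.53, adjusted p = 0.0317). Over all genes 1.92% rose. The Chac1 call was lost without each array but filling 1 (highest adjusted p = 0.0981), and 0 ER stress genes passed without emptying 1.

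Genes that distinguish cecum from ileum were chosen in the 6 sham arrays alone, at 2 log2 units or more. Of 179 cecal genes 14 rose and 4 fell, with a median of 0.10. Of 237 ileal genes 27 fell and 2 rose, with a median of -0.28. Over all genes tested 1.92% rose and 2.26% fell. Of 15 genes of large intestinal epithelium 2 rose, the water channel Aqp4 (1.75 ± 0.34, adjusted p = 0.00556) and the glucocorticoid-inactivating enzyme Hsd11b2 (1.49 ± 0.39, adjusted p = 0.0317), and 6 were detected on none of the 6 arrays. The calls of Aqp4 (adjusted p = 0.0559) and Hsd11b2 (adjusted p = 0.112) were lost without filling 1, where 0 of the 15 rose, and that of Hsd11b2 also without filling 2, emptying 1 or emptying 2. On a scale from 0 at the sham ileum mean to 1 at the sham cecum mean, self-filling loops lay at 0.231, 0.235 and 0.173 and self-emptying loops at 0.184, 0.091 and 0.126. The means were 0.213 ± 0.034 and 0.134 ± 0.047 (SD, n = 3 each). Self-filling array 3 lay below self-emptying array 1, and the difference of 0.0794 had p = 0.2 in a two-sided exact permutation test, in which 3 against 3 arrays cannot go below 0.1. Wild type loops lay at 0.129 ± 0.027 (SD, n = 3) and 0.033 ± 0.025 (SD, n = 4).

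**Figure D3:**
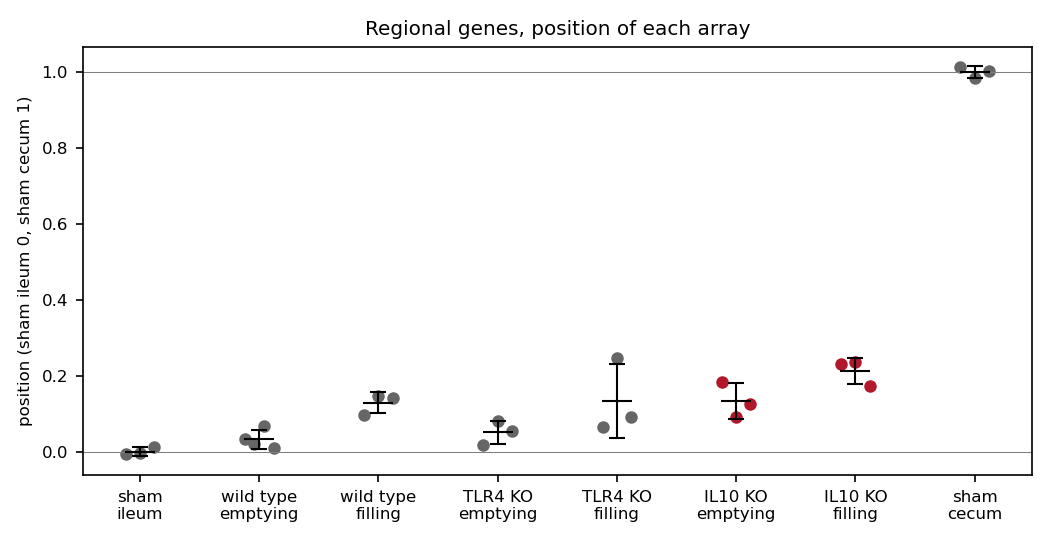
Position of each array between sham ileum (0) and sham cecum (1) over 416 regional genes, without units, for all 8 groups, with horizontal bars for group means and error bars for SD. The IL10 knockout self-filling loops lie from 0.173 to 0.235, overlapping the self-emptying loops at 0.091 to 0.184.

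The effect of standing content was then set beside that in the other genotypes, which share no array with it. In wild type 1238 genes (11%) passed, 640 higher (5.7%) and 598 lower (5.33%), and in TLR4 knockout 9 (0.0802%), 4 higher (0.0356%) and 5 lower (0.0445%). Between IL10 knockout and wild type 81 called genes were shared, 17.2% of the first list and 6.54% of the second, 76 of them in 1 direction and 5 in opposite directions. The difference of the effects was tested directly. It passed for 259 genes (2.31%) against wild type, 111 higher in IL10 knockout (0.989%) and 148 lower (1.32%). Against TLR4 knockout it passed for 22 genes (0.196%), 14 higher (0.125%) and 8 lower (0.0713%). Of the 470 genes, 110 differed from wild type and 21 from TLR4 knockout by that test. The 470 were chosen by the IL10 knockout effect, which is part of each difference, so that the choice raises these counts. Leaving out 1 array moved these counts widely: between 57 (without wild type self-filling array 3) and 619 (without wild type self-filling array 2) in place of 350 probes (2.28%) for the first, and between 5 (without TLR4 knockout self-emptying array 1) and 159 (without IL10 knockout self-filling array 3) in place of 31 probes (0.202%) for the second.

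Among the named differences from wild type were genes of defence, metabolism and chemokine signalling. Lcn2 rose by 4.87 in IL10 knockout loops and differed by 0.51 ± 0.51 in wild type loops, a difference of 4.36 ± 0.74 (adjusted p = 0.0070). Hp differed by -0.60 ± 0.69 in wild type, and the effects were 4.34 ± 1.00 apart (adjusted p = 0.0294), a call lost without any 1 of 7 of the 13 arrays of these groups (highest adjusted p = 0.0881). Adh1 had wild type and TLR4 knockout effects of -1.22 ± 0.40 and -0.70 ± 0.43, neither of which passed, and its differences of 3.83 and 3.31 from these genotypes both passed (adjusted p = 0.00317 and 0.0272), the second being lost without TLR4 knockout emptying 1 or 3 (highest adjusted p = 0.0785). Cxcl10 also differed from both, by 3.20 and 2.70 (adjusted p = 0.00338 and 0.0353), and so did Ifng, by 1.97 and 1.74 (adjusted p = 0.00113 and 0.0119). The difference of Cxcl10 from TLR4 knockout was lost without any 1 of 5 of the 12 arrays of these groups (highest adjusted p = 0.112). All 4 genes called in the interferon gamma list differed from wild type, and 2 of them from TLR4 knockout, where 2.31% and 0.196% of all genes did. These 4 were chosen by their change in IL10 knockout loops, which is part of each difference tested. Gsdmc2 had an effect of 0.83 ± 0.92 in wild type and differed by -5.09 ± 1.35 (adjusted p = 0.0496), a call lost in the authors' log2 values (adjusted p = 0.0549) and without any 1 of 10 of the 13 arrays (highest adjusted p = 0.145).

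Some genes had effects of opposite sign. The transferrin receptor Tfrc rose in wild type (1.40 ± 0.33) and had -1.11 ± 0.35 in IL10 knockout, which did not pass, and the effects differed (-2.51 ± 0.48, adjusted p = 0.0128). Myl7, an atrial myosin light chain, and Phlda2, an imprinted growth regulator, rose in wild type by 2.06 ± 0.30 and 2.29 ± 0.46 and lay at -0.79 and -0.87 in IL10 knockout. Rtn4ip1 fell in IL10 knockout (-0.95 ± 0.15) and rose in wild type (0.62 ± 0.14), and it differed from both genotypes, from TLR4 knockout not without filling 1 or TLR4 knockout emptying 1 or 3 (highest adjusted p = 0.0694). The Phlda2 difference was lost without wild type filling 1 or 3 and that of Tfrc without wild type filling 3 (adjusted p = 0.0722 and 0.0508). Cartpt rose in all 3 genotypes, by 2.73 ± 0.47 in IL10 knockout, 2.52 ± 0.44 in wild type and 2.73 ± 0.47 in TLR4 knockout. The list of repair-associated genes, of which 12 of 17 rose in wild type, held 0 members whose effect differed from IL10 knockout by the test. MHC class II genes, of which 5 of 12 fell in wild type, also held 0 such members, and T cell markers, of which 5 of 10 fell there, held 2.

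**Figure D4:**
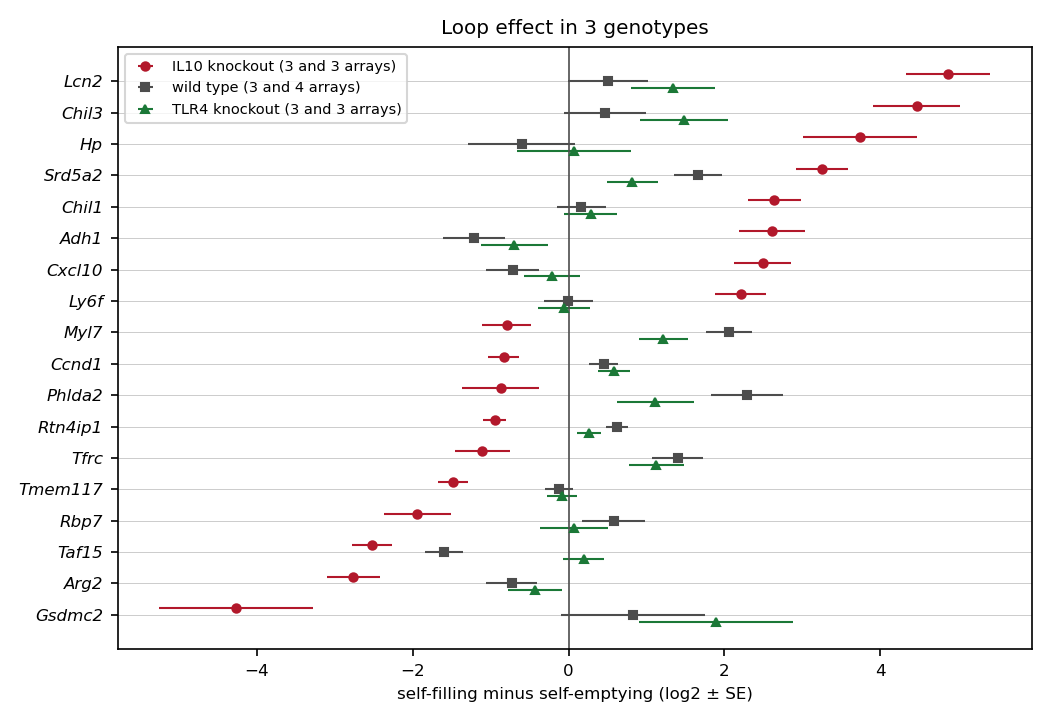
Change in self-filling minus self-emptying loops (log2 ± SE) in IL10 knockout (red circles), wild type (grey squares) and TLR4 knockout (green triangles) for the genes with the largest differences between genotypes. Adh1 and Cxcl10 lie above 0 in IL10 knockout and below 0 in the other genotypes, and Tfrc, Myl7 and Phlda2 lie below 0 in IL10 knockout and above 0 in the others.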

How the data were processed

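Samples were grouped and numbered by their titles. The description numbers of 4 of the 25 samples differ from the titles, and no slide is named. The members and gene lists were chosen with earlier results of these data known.

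The authors deposited bead intensity averages, neither background-subtracted nor normalized, with a detection p-value deposited by the authors for each probe and array. They also deposited log2 values of 17612 probes, for which the submitters' processing notes name limma. All 25 columns of the authors' log2 values correlated best with their own array as normalized here, which gives their scale, while their probe filter is unknown. Probe positions and the genome build are not given in the sources used here. Among the value columns, 0 had no sample.

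For the values used here, normexp correction with the detection p-values and an offset of 16 was followed by quantile normalization of the 25 arrays (limma 3.58.1 neqc, under R 4.3.3, with statmod 1.5.0). Python 3.11.15, pandas 2.3.3, numpy 2.4.6, scipy 1.17.1 and matplotlib 3.10.9 made tables and figures. The 15318 probes with a detection p under 0.05 on 3 or more arrays were tested, and each gene is represented by its probe of highest mean, with symbols updated from RefSeq tables. One limma model with group means covered the 25 arrays (residual df 17, prior df 4.22), with p-values adjusted over all probes by Benjamini-Hochberg. It was tested on simulated data. For a probe without detection in a whole group, a fold is a bound, taken from the bright group's mean and a floor in the dim group: the lowest detected signal of each array, or the probe's own signal where that is higher.

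Named genes were the 15 largest rises and falls that passed with arrays that do not overlap, up to 4 passing members of each list (or the 2 of smallest p), the 5 largest differences in each direction between genotypes, and Il10 and Tlr4, of which a share is printed. Alternatives covered background, offset, the authors' values, normalization, detection filter, 1 probe per gene, array weights, signal ratio, array code runs, replicate blocks, moderation and leaving out each array. Leaving out self-filling and self-emptying array 1 together was added after seeing the data.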

Additional observations from a re-analysis of the deposited data

Results flagged for a closer look

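The effect of standing content in IL10 knockout loops differed from that in wild type for 350 probes and from that in TLR4 knockout for 31 probes, by the limma test of the difference of effects at an adjusted p under 0.05. The values below are IL10 knockout minus the other genotype in log2 units, and their cause was not tested.

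Against wild type, defence and inflammatory genes had positive differences: Lcn2 4.36, Hp 4.34, Chil3 4.00, Fpr2 2.89, Chil1 2.48, Cd274 2.13, Nfkbia 2.07, Cd68 2.04, Tnf 1.80 and Il1r2 1.50. The same held for genes of interferon signalling, with Cxcl10 at 3.20, Cxcl9 at 2.50, Ifit2 at 2.29, Gbp3 at 1.99 and Ifng at 1.97. Of these, Ifit2 and Gbp3 did not pass in IL10 knockout loops (1.33 and 0.86, adjusted p = 0.0742 and 0.136). In wild type they had -0.96 and -1.13. Of 20 type I interferon antiviral genes 2 differed, and of 21 immune GTPase and MHC class I genes 1. Other positive differences were Adh1 3.83, St6galnac6 2.23, Ly6f 2.21, Myot 1.92, Lyve1 1.57, Mgst1 1.37 and Fth1 0.62. Negative differences were found for Gsdmc2 (-5.09), Phlda2 (-3.16), Myl7 (-2.85), Rbp7 (-2.52), Tfrc (-2.51), Asah2 (-2.44), Arg2 (-2.03), Rtn4ip1 (-1.57), Cox7a2 (-1.36), Tmem117 (-1.36), Ccnd1 (-1.29), Sox9 (-1.16) and Krt8 (-0.55). That of Rbp7 was lost without any 1 of 8 arrays of these groups (highest adjusted p = 0.0923).

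Against TLR4 knockout, the positive differences among named genes were Adh1 3.31, Cxcl10 2.70, Srd5a2 2.43, Chil1 2.35, Ly6f 2.27, Myot 2.10 and Ifng 1.74. Those of Srd5a2, Chil1 and Ly6f were lost without any 1 of 7, 8 and 9 arrays of these groups (highest adjusted p = 0.112, 0.139 and 0.105). The negative ones were Taf15 (-2.72), Arg2 (-2.33), Ccnd1 (-1.42), Tmem117 (-1.40) and Rtn4ip1 (-1.21). Those of Arg2, Ccnd1 and Tmem117 were lost without any 1 of 8, 9 and 6 arrays (highest adjusted p = 0.122, 0.0986 and 0.0988). In the authors' log2 values the differences of Chil1, Ly6f and Arg2 were lost (adjusted p = 0.0510, 0.0627 and 0.0627).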

How the results depend on the processing

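In IL10 knockout loops 84 genes were followed: the 82 that passed among those named by the rule, with Il10 and Tlr4. None of these changed direction under any alternative run, which the choice of 82 of them by this same change made likely. Nox1, Duox2, Rgs1, Gpnmb and the other genes that did not pass were not in this check. Of 82 named genes that passed in IL10 knockout loops, 27 passed under every alternative other than the fit of 6 arrays. In that fit 6 probes passed in place of 649, and of the 82 genes only Srd5a2, Taf15 and Arg2 kept their call. All 82 had an unadjusted p under 0.05 there, which their choice by the same difference made likely. The count was 292 without quantile normalization, with 64.4% higher in place of 50.7%, and 138 without self-filling and self-emptying array 1 together. Leaving out 1 array gave 140 to 1017. The difference from wild type passed for 117 probes in place of 350 with only the groups compared and for 1055 with array weights. Without quantile normalization 33.7% of these were higher in place of 44.0%, and leaving out 1 array gave 57 to 619. The difference from TLR4 knockout passed for 31 probes, against 7 with no detection filter, 19 with 1 probe per gene, 1 with only the groups compared, 89 with array weights, 65 with the signal ratio as covariate, 72 with runs of array codes as a block and 17 without both arrays 1. Without quantile normalization 76.0% were higher in place of 61.3%, and leaving out 1 array gave 5 to 159. The causes were not tested. Cecal genes at 3 log2 units or more rose in 10 cases, and ileal genes fell in 19.

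Neither set of replicate numbers gave correlated deviations in every pair: same-numbered loops had -0.27, -0.24 and -0.08 by title and 0.23, 0.30 and 0.02 by description. The description numbers follow the runs of array codes, and whether such loops are paired is not known. The reported fit used no pairing. With a replicate block by title number 640, 321 and 102 probes passed in the 3 comparisons, and with a replicate block by description number 1013, 297 and 159.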
